A study of Arabidopsis thaliana with 24 samples.

Results

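Inflorescences of *Arabidopsis thaliana* were compared 1 day after activation of the floral regulator AP1 with the same kind of tissue at day 0, on 8 of the 24 arrays of a time course that ran over 6 days. The arrays were chosen by the day and the set number in their titles, 4 for day 0 and 4 for day 1, and were paired by set (sets 1 to 4). All plants, on both days, carried 35S:AP1-GR in an ap1 cal background: both AP1 and its close relative CAL are mutated, and a fusion of AP1 to the hormone-binding domain of the glucocorticoid receptor is made under the broadly active 35S promoter. Inflorescences were treated once with 1 µM dexamethasone just after bolting, and tissue of about 25 plants was pooled for each time point, so a value is that of a pool. Each array received decapped mRNA and total polyadenylated mRNA of 1 sample in different dyes. Within each set the dyes were swapped between the 2 days: decapped mRNA was in Cy3 on day 0 and Cy5 on day 1 in sets 1 and 2, and the other way round in sets 3 and 4. A day 1 sample without dexamethasone was not analysed here, so AP1 activity, the treatment itself and the day of growth cannot be told apart.

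AP1 is a MADS-domain transcription factor that turns newly formed meristems into flowers. Plants without AP1 and CAL pile up inflorescence-like meristems, and activating the fusion protein starts flower formation in many of them together. Messenger RNAs carry a 5′ cap that protects them, and its removal commits most transcripts to digestion from the 5′ end, so decapped polyadenylated RNA holds decay intermediates as well as products of cleavage by small RNAs. The ratio of decapped to total mRNA is therefore a readout of the decapped share of each transcript and not of its abundance.

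Values are log ratios, likely to base 2 and likely decapped over total. The files state neither, nor how the arrays were centred. If the ratio was formed the other way round, each "higher" below reads "lower". In pooled tissue, a changed mix of cells and a changed ratio within cells cannot be told apart. A difference is day 1 minus day 0, fitted by limma over all 24 arrays with terms for day, set and dye. The fit covered 11227 genes with values on both days, and p-values were adjusted by the Benjamini-Hochberg method over all of them, with a threshold of 0.05.

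The comparison asked which transcripts differed in their decapped share 1 day after AP1 activation. No gene passed the threshold in either direction (0% of 11227 higher and 0% lower). At an unadjusted p under 0.05, limma listed 306 genes (2.73%), of which 243 (2.16%) were higher and 63 (0.561%) lower on day 1. That is below the share of 0.05 that this threshold lists on average when no gene differs. All 4 sets had a higher ratio on day 1 for 393 genes (3.5%) and a lower one for 118 genes (1.05%). The 4 day 1 arrays lay above all 4 day 0 arrays for 58 genes (0.517%) and below them for 19 (0.169%). The excess of higher values depended on the scaling: the split of unadjusted calls was 189 higher to 103 lower with each array centred on its median, 194 to 114 with each array also scaled, and 166 to 128 after quantile normalization. It also depended on single arrays, since it turned to 263 higher against 336 lower without the day 0 array of set 1, and widened to 960 against 161 without the day 0 array of set 2. Without the whole of set 1 it was 265 higher against 669 lower.

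The data left room for differences of moderate size. The median 95% interval of a difference was ±0.911, and it lay within 1 of 0 for 3582 genes (31.9%). For the other genes the interval reached a difference of 1 or more. In simulated data with independent noise, few of 10607 genes were changed. A difference of 1 was recovered in 0%, of 2 in 61% and of 3 in 88.5% of changed genes. Noise shared by the genes of an array was not simulated, and recovery varies with the number of genes changed, so these shares are only a guide. The median difference over all genes was 0.12, from -0.11 to 0.37 between the quartiles. Relative to that median gene, the differences given below read about 0.12 lower. Centring each array lowered the differences by 0.08 and left a median of 0.0431, and quantile normalization left one of 0.000694. A fitted difference of at least 1 in size was found for 541 genes (4.82%), 277 higher (2.47%) and 264 lower (2.35%).

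AT5G09710, a locus that RefSeq lists as a transcribed pseudogene, had the smallest adjusted p of all genes. Its day 0 ratios, in the order of the sets as for every gene below, were -1.84, -1.80, -0.999 and -1.68, and those of day 1 were 0.10, 0.71, -0.22 and -0.44. Every day 1 array lay above every day 0 array, and the low ratio of day 0 had come close to 0. The difference was 1.62 ± 0.26 (SE; 95% interval 1.07 to 2.18; limma adjusted p = 0.0992). The adjusted p was 0.543 without the set term. It was 0.0349 with all deposited values kept and 0.0476 without the day 0 array of set 3, and it ran up to 1 over the alternatives tried, so the call turned on these choices.

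A similar course of values was seen for AT4G26460, a protein-coding locus. Its ratios were -2.37, -2.27, -0.68 and -1.88 on day 0, then 0.17, -0.27, -0.58 and -0.12 on day 1, with no overlap between the days. The difference of 1.6 ± 0.31 (SE) had a limma adjusted p of 0.289, and it passed the threshold at 0.0476 when the day 0 array of set 3, the highest of the 4, was left out. AT3G30460 had ratios of -3.49, -2.42, -1.29 and -1.54 on day 0, then -0.97, -1.18, -0.59 and -0.10 on day 1. Its groups did not overlap either, and the difference was 1.48 ± 0.31 (SE; limma adjusted p = 0.386). AT2G41120 had ratios of -1.71, -0.16, -0.83 and -0.11 on day 0, then 1.04, 1.66, 0.90 and 1.52 on day 1, as deposited. All 4 day 1 values were positive and all 4 day 0 values negative, and the difference of 1.98 ± 0.53 (SE) had a limma adjusted p of 1.

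AT5G46230 lay at -1.29, -3.69, -3.02 and -3.73 on day 0, then at -1.01, -1.26, -1.37 and -0.87 on day 1, a difference of 1.80 ± 0.47 (SE). The day 0 array of set 1 overlapped with day 1, and the spread between sets was wide on day 0 and narrow on day 1. The other 5 genes among the 10 with the smallest p on the higher side were AT5G62860, AT5G57760, AT5G52160, AT3G05400 and AT1G66720. Their differences ran from 1.16 to 1.62, and the 2 days overlapped in each. AT5G62860 has 2 probes, of which 1 was left out on day 0 and averaged in on day 1 with shared values. The difference of 1.31 for AT5G62860 was 0.24 with all values kept and 0.27 with every shared set of values removed. AT5G57760 and AT1G66720, with 1 probe each, held day 1 values that another probe also held. These values may hold no measurement, and neither gene could be tested with shared values removed. AT5G57760 moved from 1.35 to 0.90 without the day 0 array of set 2.

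**Figure D1:**
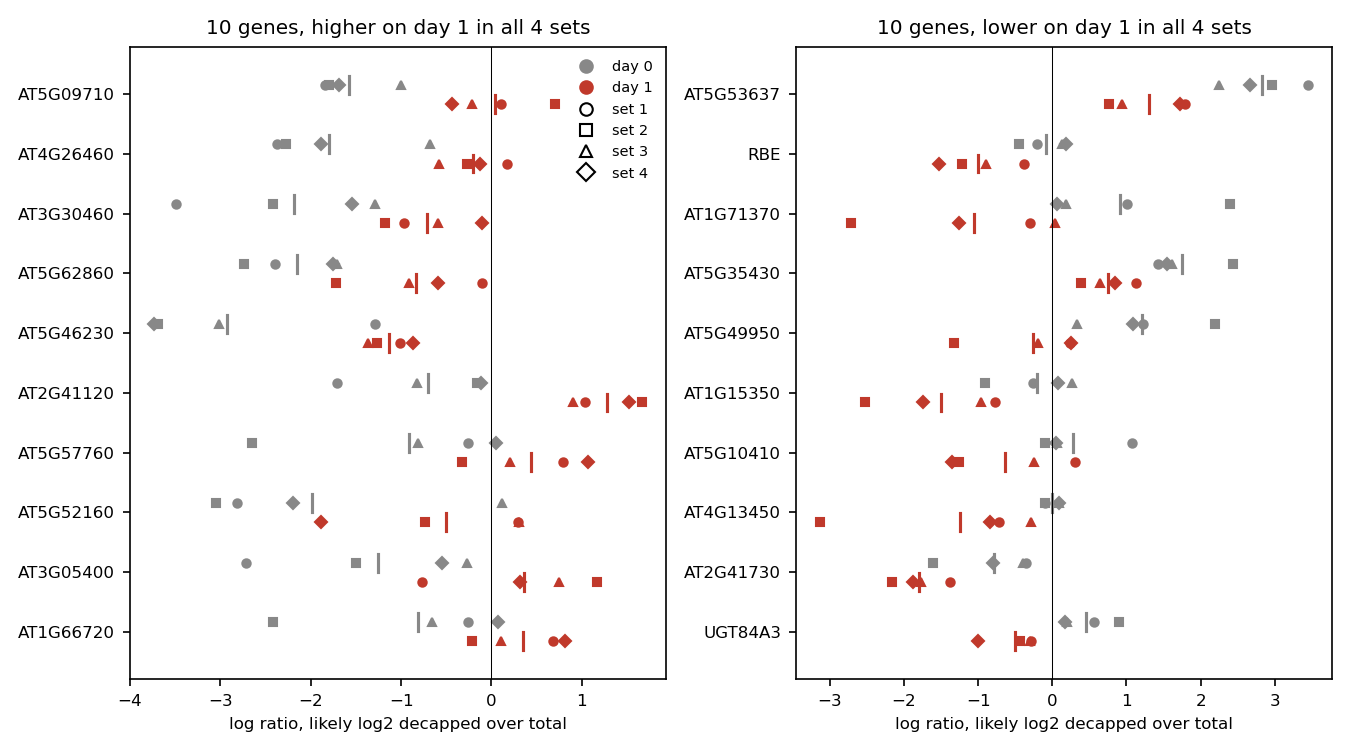
Log ratio (likely log2 decapped over total, horizontal axes) on each of the 8 arrays for the 10 genes with the smallest limma p on the higher side (left) and on the lower side (right) among genes whose 4 sets moved 1 way. Grey points are day 0, red points day 1, shapes mark the set and vertical bars the mean of 4 arrays. AT5G09710 moved from -1.58 to 0.04 in the mean, and RBE from -0.09 to -1.0.

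On the lower side, AT5G53637 came first. Its ratios were 3.44, 2.97, 2.25 and 2.66 on day 0, then 1.79, 0.77, 0.94 and 1.73 on day 1, all above 0 on both days and with no overlap between them. The difference was -1.53 ± 0.27 (SE; limma adjusted p = 0.108). This value and the lack of overlap did not compare the same probes on the 2 days. Of its 2 probes, 1 was left out on day 0 as no measurement. On day 1 that probe held values that other probes shared and was averaged in. The difference was -0.11 with all values kept and -0.22 with every shared set of values removed.

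RBE, which encodes a zinc-finger protein needed for petal formation, was next by p and is the only floral regulator in this group. Its ratios were -0.20, -0.45, 0.13 and 0.18 on day 0, then -0.37, -1.21, -0.89 and -1.53 on day 1. The ratio was lower on day 1 in each of the 4 sets, by the least in set 1, whose day 1 array overlapped with day 0. The difference was -0.92 ± 0.26 (SE; 95% interval -1.47 to -0.36), with an unadjusted limma p of 0.0028 and an adjusted p of 1. It stayed between -1.08 and -0.68 when a set or an array was left out.

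UGT84A3, a gene for a glycosyltransferase of phenylpropanoid metabolism, had ratios of 0.56, 0.91, 0.20 and 0.17 on day 0, then -0.29, -0.44, -0.30 and -1.01 on day 1. The 4 day 0 values were all above 0 as deposited and the 4 day 1 values all below, so the days did not overlap. The difference of -0.96 ± 0.34 (SE) had a limma adjusted p of 1. LpxD2, whose bacterial relatives act in lipid A synthesis, lay at -0.71, -0.63, -0.78 and -0.46 on day 0, then at -1.44, -1.91, -2.11 and -1.51 on day 1. Its 2 groups did not overlap, and its difference of -1.10 ± 0.39 (SE) ran from -1.33 to -0.93 when a set or an array was left out.

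The other 7 genes of lowest p on this side were loci without a symbol, with differences from -1.97 for AT1G71370 to -0.91 for AT5G10410. The days did not overlap for AT1G71370, AT5G35430, AT5G49950 and AT4G13450, and they overlapped for AT1G15350, AT5G10410 and AT2G41730. Set 2 carried much of 3 of these values. Without it AT1G71370 moved from -1.97 to -0.91, AT5G49950 from -1.47 to -0.71 and AT4G13450 from -1.24 to -0.59. AT5G35430 has 2 probes, of which 1 was left out on day 0 and averaged in on day 1 with shared values. Its lack of overlap therefore did not compare the same probes. The difference moved from -1.0 to -0.13 with all values kept and to -0.25 with every shared set of values removed. The day 0 values of AT4G13450, at 0.09 in size with a sign set by the dye, were shared with other probes and may hold no measurement.

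A symbol other than the locus name was available for 1291 of the 11227 genes, and the 10 of lowest p in each direction were read out among those with 4 sets of 1 sign. On the higher side these were PRA1.G2, GLR3.3, scpl31, DELTA-VPE, CYP71B21, SERPIN1, POLA3, BGLU45, ALC and PDF1.2c. All 10 had an adjusted p of 1 in limma, with unadjusted p-values from 0.00356 to 0.0219. PRA1.G2, of a family of prenylated RAB acceptors in vesicle traffic, had ratios of -1.87, -0.24, -0.26 and -1.60 on day 0, then -0.75, 0.24, 1.19 and 0.07 on day 1. The difference was 1.18 ± 0.35 (SE) and was 0.74 after quantile normalization.

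GLR3.3, which encodes a glutamate receptor-like cation channel, lay at -0.15, 0.42, 0.61 and 0.33 on day 0, then at 1.05, 1.58, 1.10 and 0.49 on day 1. Its difference of 0.75 ± 0.26 (SE) stayed between 0.69 and 0.84 when a set or an array was left out. The serine carboxypeptidase-like gene scpl31 moved from -0.87, -0.15, -1.06 and -0.82 to -0.01, 0.83, 0.57 and 0.57. Its days did not overlap, and the difference was 1.21 ± 0.42 (SE).

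ALC, a bHLH gene that shapes the valve margin of the fruit, was the other gene of this group without overlap. Its ratios were -1.84, -1.27, -0.68 and -0.74 on day 0, then -0.65, -0.00, -0.49 and -0.36 on day 1. The difference of 0.76 ± 0.30 (SE) was 0.44 after centring and scaling each array and 0.39 after quantile normalization. SERPIN1, a protease inhibitor gene, stayed below 0 on all 8 arrays, at -1.72, -0.72, -1.81 and -1.93 and then -0.41, -0.54, -1.08 and -1.23, a difference of 0.73 ± 0.27 (SE) that was 0.44 after quantile normalization.

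Set 1 weighed heavily on 3 more of the 10. CYP71B21, a cytochrome P450 gene, had a difference of 1.43 that was 0.82 without set 1. BGLU45, a beta-glucosidase gene, went from 1.15 to 0.37, and POLA3, for a subunit of the DNA polymerase alpha complex, from 0.69 to 0.30. DELTA-VPE, a vacuolar processing enzyme gene, had 1.05 or 0.64 without set 4. Its only probe shared its day 1 values with another probe, and they may hold no measurement. PDF1.2c, a plant defensin gene, had a difference of 1.05 ± 0.42 (SE) with a wide spread on day 1, from -2.66 to 0.37.

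On the lower side, RBE, UGT84A3 and LpxD2 were followed by LEP, PRA1.F4, MENG, GH9A3, NRPB12, 4CL8 and ATGSTF13. LEP, an AP2/ERF transcription factor gene, had ratios of 0.25, 1.30, 0.86 and 1.30 on day 0, then 0.03, -0.07, -0.30 and 0.86 on day 1. The days overlapped through set 1 on day 0 and set 4 on day 1, and the difference was -0.80 ± 0.32 (SE), or -0.49 without set 2. Its unadjusted limma p was 0.0231, and those of the 6 genes after it lay between 0.0679 and 0.122.

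PRA1.F4 had closely grouped day 1 ratios, at -2.76, -2.83, -2.92 and -2.82, against -1.77, 1.64, -1.66 and -2.03 on day 0. The 4 day 1 arrays had an SD of 0.06 and lay below all day 0 arrays. Much of its difference of -1.88 ± 0.97 (SE) came from the day 0 array of set 2, without which it was -0.71. MENG, a methyltransferase gene of phylloquinone synthesis, had a difference of -1.31 ± 0.68 (SE), and the endoglucanase gene GH9A3 one of -0.74 ± 0.38, or -0.47 without set 1. For NRPB12, a subunit gene of nuclear RNA polymerases, -0.63 ± 0.35 (SE) became -0.36 without the day 0 array of set 1. 4CL8 (-0.92 ± 0.55) and the glutathione transferase gene ATGSTF13 (-0.72 ± 0.44) depended on single day 1 arrays and reached -0.45 and -0.16 when a set or an array was left out.

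Of 32 floral regulators on a list of organ identity, meristem identity and organ patterning genes, 9 had values on both days: UFO, SPT, NGA3, SPL, RBE, PTL, JAG, KNU and INO. None passed the adjusted test. At an unadjusted p under 0.05 there was 1 higher, NGA3, and 1 lower, RBE, against 2.16% and 0.561% of all genes. Their median difference was -0.03, against 0.12 over all genes. UFO, an F-box gene that promotes petal and stamen identity, had a ratio above 0 on all 8 arrays, at 0.95, 1.24, 0.73 and 1.10 on day 0, then 1.48, 0.99, 0.58 and 0.86 on day 1. Its difference of -0.03 ± 0.26 (SE; 95% interval within 1 of 0) was smaller than the spread between sets.

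SPT, a bHLH gene of carpel development, was likewise above 0 on every array, from 0.58 to 1.65 on day 0 and from 0.75 to 1.73 on day 1, with a difference of 0.26 ± 0.29 (SE). PTL and SPL moved up in each of the 4 sets. PTL, a trihelix gene that limits growth between sepals, had ratios of -0.64, -0.16, -0.43 and -0.63 on day 0, then 0.26, -0.04, 0.15 and -0.32 on day 1, a difference of 0.48 ± 0.28 (SE). SPL, the gene for sporocyte initiation, went from -1.15, -0.87, -0.65 and -0.66 to -1.0, -0.41, -0.49 and 0.29, a difference of 0.43 ± 0.41 (SE). Neither passed even the unadjusted threshold, with limma p-values of 0.107 and 0.314.

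NGA3, a B3-domain gene of style development, had an unadjusted limma p of 0.0245 with a difference of 1.34 ± 0.54 (SE). Its ratios were -1.10, 0.44, -0.22 and -3.80 on day 0, then 0.47, 0.08, -0.14 and 0.27 on day 1. The day 0 array of set 4 was the lowest of the 8. The difference was 0.47 without set 4 and 2.18 without set 3. The lateral organ gene JAG (-0.27 ± 0.44), the zinc-finger repressor gene KNU (-0.19 ± 0.46) and the ovule integument gene INO (-0.59 ± 1.04) each had sets that moved in opposite directions and changed sign when a set or an array was left out.

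Among 24 inflorescence and flowering-time regulators, 7 were measured and none passed the adjusted or the unadjusted test. Their differences ran from -0.28 to 0.31 with a median of 0.12, and for 4 of the 7 the 95% interval lay within 1 of 0. FD, the bZIP partner of the florigen FT, had ratios of -1.43, 0.44, 0.33 and 0.30 on day 0, then 0.21, -0.08, 0.46 and 0.29 on day 1. Apart from the day 0 array of set 1 these values lay close together, and the difference was 0.31 ± 0.32 (SE). AGL24, a MADS-box gene that AP1 is known to repress, stayed below 0 on 7 of the 8 arrays and had a difference of -0.24 ± 0.36 (SE).

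Of 32 meristem, boundary and polarity regulators 6 were measured, and none passed either test. Their differences lay between -0.14 and 0.37. CLV3, the secreted stem-cell peptide gene, was below 0 on all 8 arrays, at -0.17, -0.83, -0.19 and -0.25 on day 0, then -0.08, -0.88, -0.93 and -0.11 on day 1, a difference of -0.14 ± 0.36 (SE). It was also the only 1 of 5 shoot meristem markers with values on both days, and since a ratio gives no level, the labelled tissue could not be checked against its markers. POL, a phosphatase gene of stem-cell maintenance, had high ratios on all 8 arrays, from 0.88 to 3.48 on day 0 and from 1.04 to 3.17 on day 1. The sets disagreed in direction, and its difference was -0.09 ± 0.45 (SE).

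The mRNA decay machinery itself gave 9 measured genes of 26, with a median difference of 0.05 and no gene past either threshold. VCS, the scaffold of the decapping complex, had ratios of -1.83, 1.61, 1.67 and 1.82 on day 0, then 0.51, 0.28, 2.02 and 1.14 on day 1. Only the day 0 array of set 1 was negative, and the difference of 0.17 ± 0.56 (SE) had no fixed sign across scalings. LSM1B, a subunit of the Lsm ring that stimulates decapping, stayed between -0.18 and 0.44 on all 8 arrays, with a difference of -0.12 ± 0.30 (SE; 95% interval within 1 of 0). The exosome subunit gene RRP41 lay below 0 on all 8 arrays, from -3.03 to -0.46, with a difference of 0.24 ± 0.51 (SE).

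**Figure D2:**
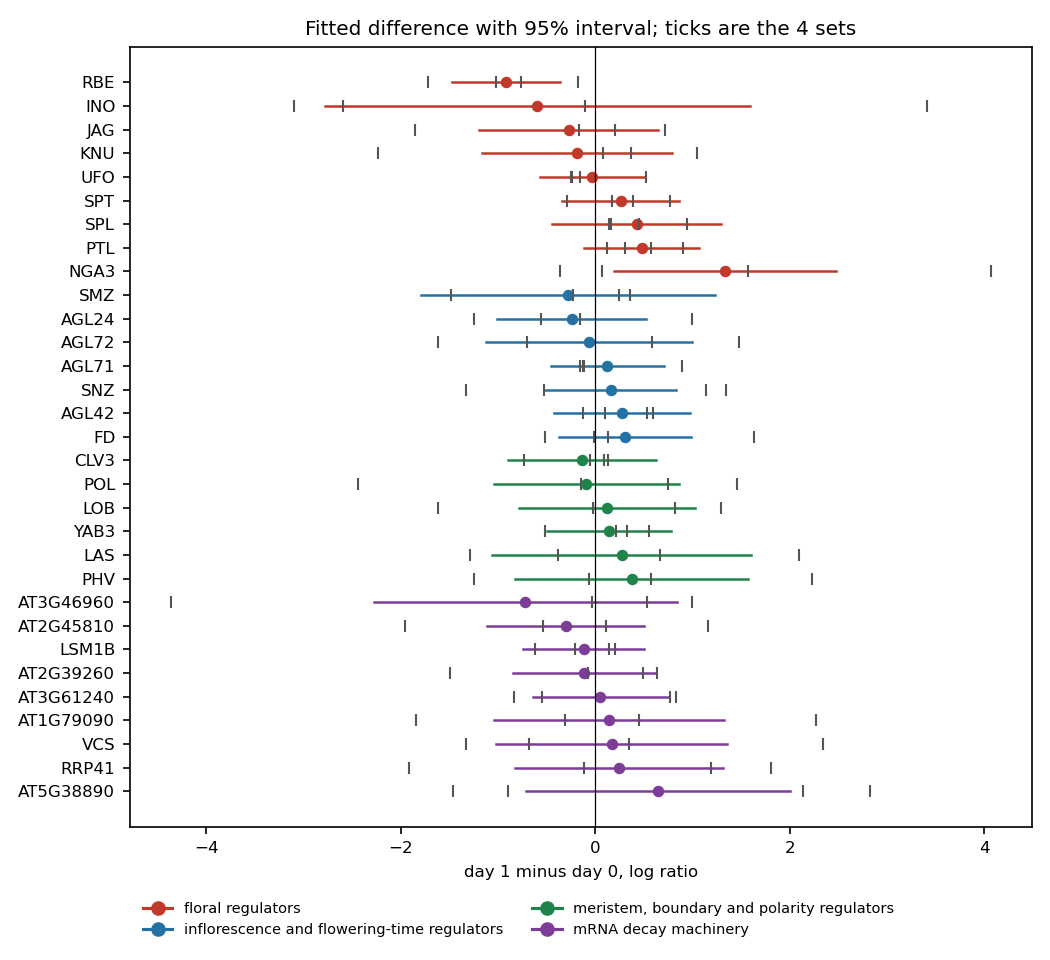
Fitted day 1 minus day 0 difference of the log ratio (horizontal axis) for the measured floral, inflorescence, meristem and mRNA decay genes, with points for the fit, lines for the 95% interval and ticks for the 4 within-set differences. RBE (-0.92) and NGA3 (1.34) have intervals that leave out 0, and no gene passed after adjustment over all genes.

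Among 64 targets of microRNAs and trans-acting small RNAs, whose cleavage leaves uncapped 3′ fragments, 8 were measured. Their differences ran from -0.28 to 0.63 with a median of 0.20, and none passed either test. PHV, a polarity gene cut through miR165 and miR166, had ratios of -0.61, 1.43, 1.86 and 1.68 on day 0, then 1.62, 0.18, 2.43 and 1.62 on day 1. It was above 0 on all arrays but the day 0 array of set 1, and the difference was 0.37 ± 0.57 (SE). The ATP sulfurylase genes APS3 and APS4, both targets of miR395, passed neither test. APS3 lay above 0 on all 8 arrays, from 0.90 to 2.46, and APS4 below 0 on all 8, from -2.77 to -0.11, with differences of 0.20 ± 0.32 and 0.25 ± 0.57 (SE).

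The 8 measured of 42 auxin, gibberellin and cytokinin genes had differences from -0.30 to 0.86, a median of 0.10 and no member past either test. No photosystem or antenna gene (8 measured of 68) and no histone gene (6 of 22) passed either test, with median differences of -0.07 and -0.29. On all 8 arrays 5 of the 8 photosystem genes and 2 of the 6 histone genes lay below 0, against 19% of all genes. LHCB4.2, an antenna protein gene, had ratios from -4.25 to -1.70 on day 0 and from -3.09 to -1.88 on day 1. HTB1, a histone H2B gene, went from -3.20, -2.74, -3.01 and -3.04 to -3.26, -2.51, -3.28 and -4.17, a difference of -0.31 ± 0.43 (SE).

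Of 99 MADS-box genes, the family of AP1, 34 were measured, with a median difference of 0.13. At an unadjusted p under 0.05, 2 were higher, AGL95 and AGL78, and AT1G30260 (AGL79 by its synonym) was lower, against 2.16% higher and 0.561% lower of all genes. The adjusted limma p of each was 1. AT1G30260 was listed through that synonym alone, and its place in the family was not checked. AGL95 had ratios of -2.82, -2.18, 1.09 and -4.15 on day 0, then -0.04, 0.51, -0.41 and -1.02 on day 1, a difference of 1.77 ± 0.60 (SE; limma adjusted p = 1). Set 3 ran against the other 3 sets, and without its day 0 array the difference was 2.68 and passed the adjusted threshold (limma adjusted p = 0.0476). Without set 4 it was 0.99 and did not pass. AGL41 had narrow ranges on both days: -0.38, -0.41, -0.38 and -0.37 on day 0 against 0.07, -0.02, -0.08 and -0.08 on day 1. Its days did not overlap. In the fit over all 24 arrays the difference was 0.36 ± 0.28 (SE), with an unadjusted limma p of 0.211.

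AGL78, by contrast, was near 0 on day 0 and split on day 1, where sets 1, 2 and 4 stood at 1.15, 2.27 and 2.03 and set 3 at -0.73. Its difference was 1.37 ± 0.48 (SE), or 2.15 without set 3 and 0.88 without set 2. AT1G30260 had a difference of -1.70 ± 0.78 (SE) that ran from -2.79 to -0.92 when a set or an array was left out.

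Among 46 bZIP genes 19 were measured, and 2 were higher at an unadjusted p under 0.05, against 2.16% of all genes. Both had an adjusted limma p of 1. BZIP53, a regulator of amino acid metabolism and seed maturation genes, was above 0 on all 8 arrays, at 0.25, 3.11, 2.46 and 2.29 on day 0, then 4.55, 2.85, 2.80 and 4.88 on day 1. Set 1 gave much of its difference of 1.74 ± 0.71 (SE), which was 0.89 without that set. bZIP42 had 1.97 ± 0.73 (SE), or 0.96 without set 1. Of 72 WRKY genes 7 were measured, with differences from -2.02 to 0.89, a median of 0.10 and none past the adjusted test. WRKY47 was higher in each of the 4 sets, from -0.86, 0.41, -0.47 and -0.37 to -0.27, 1.38, -0.02 and 1.19 (0.89 ± 0.39 SE). The unadjusted limma p of WRKY47 was 0.0337. It was the only 1 of the 7 under 0.05, against 2.16% of all genes on the higher side.

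Of 31 expansin genes 14 were measured, with differences from -1.35 to 0.52 and none past either test. No MYB gene of 125 was matched to a probe. Of 100 NAC genes 1 was matched, and none could be tested. The only measured cell division gene of 14, PRL, had a difference of 0.57. Markers of other cell types were few: SPCH and MUTE of the stomatal lineage and RCA of leaf mesophyll were the 3 measured of 17, with differences from -0.47 to 0.61 and none past either test. The pollen, trichome, xylem and phloem markers on the list had no tested value. Of 13 stress and handling genes only the zinc-finger gene STZ was measured, with ratios of 0.52, 4.72, -0.11 and 0.98 on day 0, then 0.10, -2.26, 1.78 and 1.17 on day 1. Its sets went in opposite directions, and its difference of -1.33 ± 0.94 (SE) was 0.45 without set 2.

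The 4 sets did not move together. The median within-set difference over genes was 0.64 in set 1, -0.39 in set 2, 0.10 in set 3 and 0.06 in set 4, and day 1 was the higher for 71.2%, 36.2%, 55.1% and 53.6% of genes. Set 1 thus moved up across most genes and set 2 down. Across the 11227 genes, which are not independent replicates, the correlation of the differences was -0.336 between sets 1 and 2 and -0.348 between sets 1 and 3. For the other 4 pairs of sets it lay between -0.103 and 0.005. Sets 1 and 2 had the same order of dyes, and sets 1 and 3 opposite orders.

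**Figure D3:**
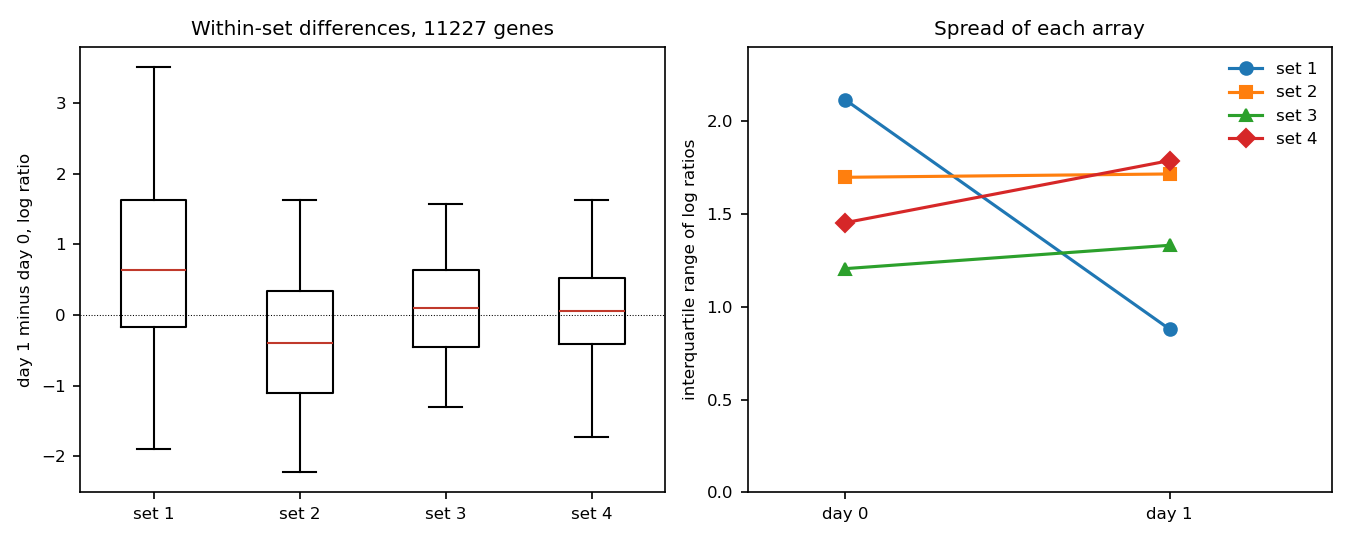
Left, day 1 minus day 0 difference of the log ratio over 11227 genes in each set, with boxes from the lower to the upper quartile, red lines at the median and whiskers from the 5th to the 95th percentile. Right, interquartile range of the log ratios on each array, by day and set. Set 1 has a median of 0.64 and set 2 of -0.39, and only set 1 narrows from day 0 to day 1.

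The arrays themselves differed in spread. In the order of the sets, the day 0 arrays had interquartile ranges of 2.12, 1.70, 1.21 and 1.45, and the day 1 arrays of 0.88, 1.72, 1.33 and 1.79. Set 1 had the widest array on day 0 and the narrowest on day 1. The mean of the within-set differences was -0.19 ± 0.71 (SD, n = 4) for the interquartile range and 0.08 ± 0.33 for the array median, with p = 1 for each in an exact two-sided permutation test by sign flips, a test whose smallest possible p is above the threshold with 4 sets. The share of genes with a ratio of -1 or less differed by -5.38 ± 15.6 percentage points (day 1 minus day 0, SD, n = 4; exact permutation p = 0.75). That change was -28.1 points in set 1 and lay between -1.68 and 6.99 points in the other sets.

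Ratios of individual genes on day 0 nevertheless carried over to day 1. Across genes the day means correlated with an r of 0.91, as a description of points that share probes, sets and array scale. Of all genes, 1073 (9.56%) were above 0 and 2133 (19%) below 0 on all 8 arrays. UFO, SPT, POL, APS3 and BZIP53 were among the former, and CLV3, LHCB4.2, HTB1, SERPIN1, APS4 and RRP41 among the latter.

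Within a set, dye and day changed together. The opposite dye orders of sets 1 and 2 and of sets 3 and 4 let dye and day be read apart. The dye term passed the threshold for 98 genes with a higher ratio when decapped mRNA was in Cy5 (0.873%) and for 2 genes with a lower one (0.0178%). IDH-IV (AT1G32480), an isocitrate dehydrogenase gene, had the smallest p: ratios were -2.50, -3.46, 2.37 and 3.88 on day 0, then 0.91, 2.45, -2.96 and -2.55 on day 1. Its sign followed the dye on every array. Within-set differences were therefore 3.40 and 5.91 in sets 1 and 2 and -5.33 and -6.43 in sets 3 and 4, and the fitted difference between days was -0.61 ± 0.53 (SE).

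AT5G60390 (4.53) and the histone gene HTB4 (2.37) were next in the size of p of the dye term, given here as Cy5 minus Cy3. HTB4 thus differed from HTB1, whose ratio was below 0 in either dye order. Over all genes, 6.44% were higher in sets 1 and 2 and lower in sets 3 and 4, and 5.89% had the opposite split. Leaving the dye term out of the fit changed no adjusted call and gave 301 genes in place of 306 at the unadjusted threshold. Each day had as many arrays in 1 dye order as in the other, so the term could not shift the fitted differences. These counts therefore do not tell how much the dye matters.

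**Figure D4:**
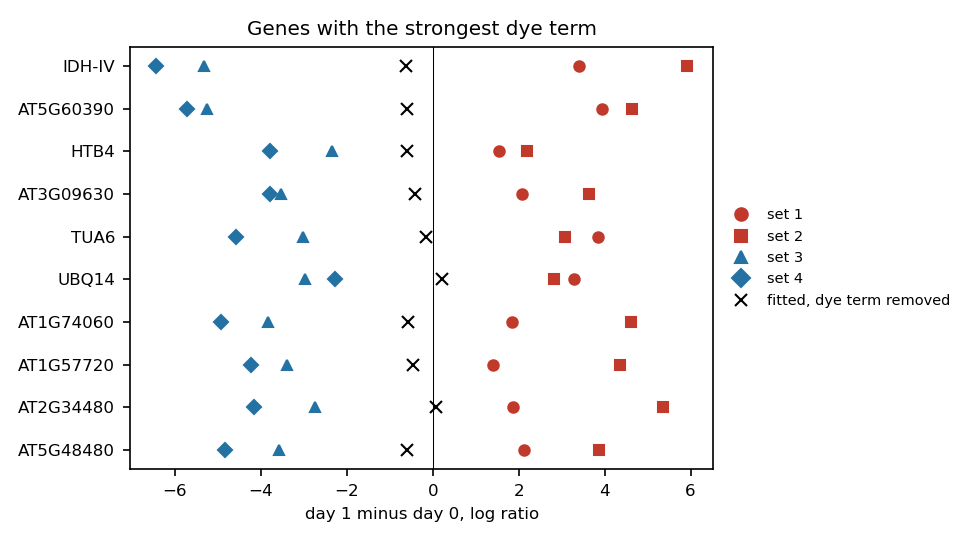
Day 1 minus day 0 difference of the log ratio (horizontal axis) in each set for the 10 genes with the smallest p for the dye term. Red marks are sets 1 and 2, blue marks sets 3 and 4, and crosses the fitted difference between days. Sets 1 and 2 lie above 0 and sets 3 and 4 below 0 in all 10 genes, and IDH-IV spans -6.43 to 5.91.

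Later days put the day 1 values in a time course, with the same 4 day 0 arrays as reference for every day, so these differences are not independent of each other. The genes were named for their day 1 difference, and their later values are given as a description. For AT5G09710 the mean ratio was -1.58 ± 0.39 (SD, n = 4) on day 0 and 0.04, -0.46, 0.07, -0.27 and 0.15 on days 1 to 5. The difference from day 0 passed the limma threshold on day 3 (1.65, adjusted p = 0.0418) and on day 5 (1.73, adjusted p = 0.0412). AT4G26460 had means of -1.80, -0.20, -0.99, -0.41, -0.39 and -0.83 on days 0 to 5, with no day past the threshold.

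RBE showed another course. Its mean ratio was -0.09 ± 0.30 (SD, n = 4) on day 0 and -1.0 ± 0.49 on day 1, then -0.57, -0.52, -0.35 and -0.06 on days 2 to 5. Day 1 was the lowest of its 6 means and day 5 was close to day 0, with no day past the threshold. UGT84A3 reached its lowest mean on day 3, at -1.58 ± 0.78 (SD, n = 4), a difference of -2.03 ± 0.34 (SE) from day 0 that passed the threshold (limma adjusted p = 0.0418). Its day 1 difference of -0.96 lay between that and 0.

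ALC was at -1.13, -0.37, -0.08, 0.09, -0.05 and -0.37 on days 0 to 5, and LEP at 0.93, 0.13, 0.17, 0.04, -0.06 and 0.24. None of their differences passed the threshold. Over all genes the counts past the threshold were 0 of 10967 on day 2 (0%), 4 of 11154 on day 3 (0.0359%), 0 of 11053 on day 4 (0%) and 1 of 10824 on day 5 (0.00924%), against 0 of 11227 on day 1.

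**Figure D5:**
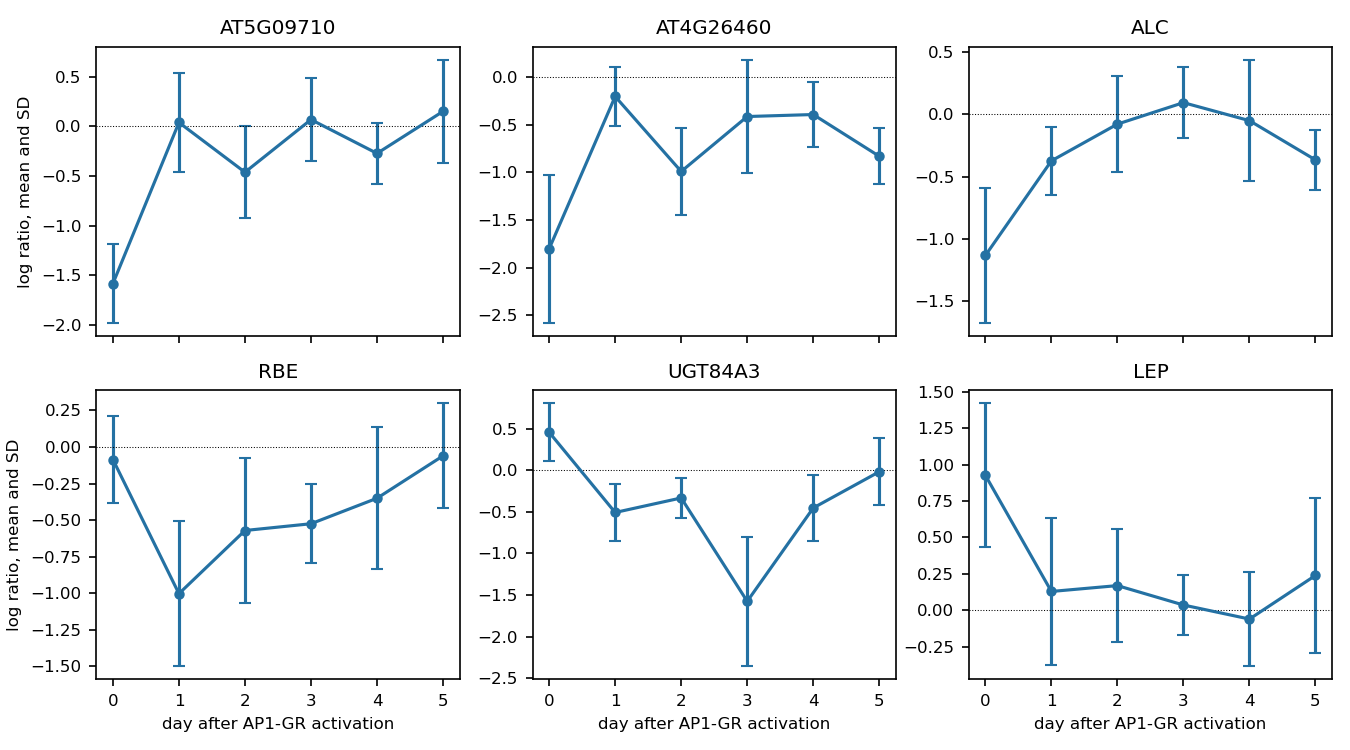
Mean log ratio of the 4 arrays of each day with its SD (vertical axes, scaled separately) against the day after AP1-GR activation for 6 genes named on day 1. AT5G09710, AT4G26460 and ALC are lowest on day 0, LEP is highest on day 0, RBE is lowest on day 1 (-1.0) and UGT84A3 on day 3 (-1.58).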

How the data were processed

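The deposited table holds 26102 probes on 24 arrays as log ratios, likely log2, that the authors had normalized. Log base, direction and centring are unstated, and no scanner values or detection calls were used here, so signal over background is unknown. How background was corrected is not given in the sources used. The platform annotation gave 13960 probes 1 gene and 12142 none, and 13912 matched the RefSeq table for TAIR10.1 (symbols only). The most common set of 4 values of a day (4424 probes on day 0, 1253 on day 1), equal in size with a sign set by the dye, was read as no measurement. Probes of a gene were averaged, and at least 2 values a day were needed, which left 11227 of 13745 genes, 206 from several probes. Values were left out by probe and day, so a gene with several probes could rest on different probes on the 2 days. Of these, 321 on day 0 and 601 on day 1 still held values that another probe shared.

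Log ratios were fitted with limma 3.58.1 (R 4.3.3; lmFit, eBayes) with day, set and dye terms over all 24 arrays, two-sided. Tables used Python 3.11.15, pandas 2.3.3 and numpy 2.4.6, exact tests scipy 1.17.1. The fit was tested on simulated data with independent noise. The series' design text calls the 4 sets biologically independent, and the set number was used as the pairing. The data bore this out weakly in sets 3 and 4 and not in sets 1 and 2. Same-set deviations from the day means correlated at -0.05, -0.14, 0.20 and 0.23 across genes in sets 1 to 4 after a dye term. The day 0 array of set 1 correlated at 0.36 with the day 1 array of set 2. Within-set differences, 4 sets of 1 sign and the set term all rest on this pairing. The p-values of genes rest on the spread of all 24 arrays left after the day, set and dye terms, drawn toward a value shared across genes. They do not rest on the 8 arrays of days 0 and 1 alone. The comparison and its 18 gene lists were chosen with earlier results of these data known. Lists were matched by symbol or synonym, so they miss unnamed members. Many list members that were not measured had no probe matched to them, so they were not shown to be undetected. Genes were named by rule: the 10 of smallest p in each direction with 4 sets of 1 sign, the same among genes with a symbol, list members, and genes past the threshold in an alternative that gave few. List members named with values beyond those of 1 sign were chosen after their values were seen. Alternatives covered the set and dye terms, the arrays fitted, scaling, shared values, probes, weights, the prior and each array or set left out. All 24 sample columns were used and 0 left out. No sequence is shown, and promoters were not analysed here.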

Additional observations from a re-analysis of the deposited data

Results flagged for a closer look

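Of 138 groups of 4 arrays (69 genes on 2 days) and 8 groups of array summaries, 8 had 1 array set far apart from the other 3 by Dixon's 95% critical value, where chance gives about 1 in 20 groups. All 8 were on day 0, 5 in set 1 and 3 in set 2. In set 1 the array stood apart for VCS (-1.83, next value 1.61), FD (-1.43, next 0.30), AT1G30260 (-0.99, next 0.01), AT5G10410 (1.08, next 0.07) and NRPB12 (0.51, next -0.71). In set 2 it stood apart for PRA1.F4 (1.64, next -1.66), CLV3 (-0.83, next -0.25) and AGL41 (-0.41, next -0.38), the last by 0.03 only because the other values lay so close. The day 0 array of set 1 was also the one with the widest interquartile range, 2.12. Without that array the difference went from 0.31 to -0.12 for FD, from 0.17 to -0.48 for VCS and from -0.63 to -0.36 for NRPB12. For AT1G30260 and AT5G10410 the sign stayed the same. Why the array stood apart was not tested.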

How the results depend on the processing

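The count of genes past the adjusted threshold was 0 in 25 of 27 alternatives. It was 1 with all deposited values kept (AT5G09710) and 3 without the day 0 array of set 3 (AT5G09710, AT4G26460 and AGL95), a range of 0 to 3 when a set or an array was left out. Without the replicate block it was 0, with a smallest adjusted p of 0.543 and 214 genes at an unadjusted p under 0.05, against 306 with the block. That unadjusted count was 53 and 61 from the 8 arrays alone with and without the block, 474 with all values kept, 491 with array weights and 581 with every probe on its own, and from 154 to 1121 when a set or an array was left out. Of the 69 named genes 52 kept their sign in every alternative that tested them. But 38 of these had been named for 4 sets of 1 sign, which makes a reversal unlikely by construction. Under centring and scaling the sign turned for UFO (0.13), POL (0.13), VCS (-0.0635) and LHCB4.2 (-0.27), under quantile normalization for VCS (-0.31), and under array weights for JAG (0.43), CLV3 (0.21), PHV (-0.00472) and VCS (-0.33). Leaving out a set or an array turned 17 genes, with ranges of -0.21 to 0.12 for UFO, -0.69 to 0.26 for JAG, -0.62 to 0.53 for KNU, -1.96 to 0.42 for INO, -0.70 to 0.20 for AGL24, -0.17 to 0.64 for FD, -0.33 to 0.0494 for CLV3, -0.81 to 0.69 for POL, -0.31 to 1.02 for PHV, -0.50 to 0.82 for VCS, -0.26 to 1.08 for RRP41, -0.26 to 0.13 for LSM1B, -0.18 to 0.61 for APS3, -0.0712 to 0.55 for APS4, -0.50 to 0.84 for LHCB4.2, -0.56 to 0.00968 for HTB1 and -2.41 to 0.45 for STZ. The array median and interquartile range moved by less than 1 SD under each alternative tried, but both turned sign without set 1, the median difference from 0.08 to -0.08 and the interquartile range from -0.19 to 0.16. The cause was not tested. Signal over background is unknown, and the number of arrays limits the precision.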
